A study of Homo sapiens with 9 samples.

Results

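The transcripts of 10 genes of the regulated secretory pathway and its neuronal counterpart were followed in NCI-H1155 cells, a lung carcinoma line with neuroendocrine features. The genes were chosen by name for their roles in secretory granules, synaptic vesicles and neuroendocrine identity, with earlier results of these data known. All 10 had a row among the 23369 genes of the deposited table. Each of them passed the filter on low values (at least 10 normalised counts in at least 3 libraries), which left 12642 genes tested. Cells had been plated for 24 h and then received 1 µM cabozantinib, 1 µM foretinib or the vehicle DMSO, and were collected 4 h after the inhibitors were added. Each group had 3 RNA-seq libraries, which keep their deposited numbers here: DMSO replicates 2, 4 and 5, cabozantinib replicates 3, 4 and 5, and foretinib replicates 1, 2 and 4. All groups are the same cell line and no genetic change was introduced. The labels describe biological triplicates without saying how the cultures were separated, so the p-values measure the spread between these libraries. Cabozantinib and foretinib are inhibitors of several receptor tyrosine kinases, MET and the VEGF receptors among them, and share a quinoline linked to a cyclopropane dicarboxamide. Foretinib carries a morpholine-tipped propoxy chain on the quinoline where cabozantinib has a methoxy group, and an additional fluorine on its central phenyl ring. The study compared the pair as structurally similar compounds of different anticancer activity.

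Neuroendocrine cells store peptides in dense-core granules and release them when calcium rises. Granins pack the core of these granules in the trans-Golgi network, prohormone convertases cut the stored precursors, and vesicle membranes fuse with the plasma membrane when SNARE proteins zip together under the control of a synaptotagmin. Pathologists use chromogranin A, synaptophysin and NCAM1 (CD56) on tissue sections to recognise neuroendocrine lung tumours. Among the members, CHGA, CHGB, SCG2 and SCG3 encode granins, SCG5 encodes the chaperone 7B2 of prohormone convertase PCSK2, SYP encodes synaptophysin of the vesicle membrane, SNAP25 a plasma membrane SNARE, SYT1 a calcium sensor of release, NCAM1 a neural adhesion molecule and UCHL1 a ubiquitin hydrolase abundant in neurons.

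Promoter sequences were available for 6 of the 10 members (CHGA, SCG3, SCG5, SYP, SYT1 and UCHL1) in a RefSeq table of 35116 promoters on GRCh38.p14, each from 250 bases before the start to 50 after it. They are shown because granule genes are textbook targets of cAMP signalling and of the repressor REST, which silences neuronal genes by binding an element called RE1. The first sequence is the CHGA promoter from 100 bases to 1 base before the start, chr14:92923050-92923149 on the plus strand, with a GC box (GGGCGG) and a full cAMP response element (TGACGTCA) in capitals. The second is the same stretch of the SYP promoter, chrX:49200194-49200293 on the minus strand, with its 4 GC boxes in capitals, read as GGGCGG or as its complement CCGCCC. The third lies in SCG3, chr15:51681511-51681535 on the plus strand, from 8 to 32 bases past the start. Matches to the left (TTCAGCACC) and right (GGACAGCG) parts of an RE1 are in capitals. These parts were searched for separately, whatever the bases between them, here cacagggc, so a whole RE1 was not looked for.
CHGA: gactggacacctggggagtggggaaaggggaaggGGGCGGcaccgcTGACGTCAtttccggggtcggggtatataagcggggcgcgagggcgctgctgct
SYP: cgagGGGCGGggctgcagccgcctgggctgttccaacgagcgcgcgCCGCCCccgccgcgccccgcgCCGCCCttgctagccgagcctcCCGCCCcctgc
SCG3: TTCAGCACCcacagggcGGACAGCG
Both strands of each promoter were searched. The full cAMP response element occurred in CHGA alone of the 6 and in 1.85% of all promoters in the table, whereas its shorter core TGACG, which the full element contains on both strands, occurred in CHGA, SCG3 and SCG5 and in 24.6% of all. In SCG3 the match to the left part was one of 132 in the table (0.376% of promoters) and that to the right part one of 573 (1.63%). All 6 promoters held a GC box, as did 45.0% of the table. TATAAA was found only in UCHL1 of the 6, on the minus strand, and in 11.5% of the table, and the EGR1 site GCGTGGGCG was in none of the 6 and in 0.795% of the table. Only exact matches were counted, so the similar tatataag in the CHGA stretch above was not. SYP had the most GC-rich upstream stretch of the 6, 74.0% over 250 bases against a median of 58.0% for all promoters. These matches describe letters in a window and say nothing about binding in these cells. REST itself was transcribed at 117 to 793 normalised counts in the 9 libraries.

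Library totals ranged from 26996023 to 34062153 reads. The foretinib libraries detected fewer genes (10220 to 10856 above 0) than the DMSO and cabozantinib libraries (11655 to 12823). Neuroendocrine regulators were transcribed in every library: INSM1 from 9367 to 17455 and NEUROD1 from 13249 to 18814 normalised counts. Of 5 endothelial markers, 4 were at 0 in all libraries and their summed level did not exceed 87.4. Of 6 leukocyte markers 4 were at 0 throughout, PTPRC and CD3E among them, with summed levels of 4.89 to 228 in DMSO, 174 to 299.7 in cabozantinib and 9.87 to 755 in foretinib. COL3A1, DCN, PDGFRB and THY1, 4 of 7 fibroblast markers, were also at 0, with sums of 453 to 1345 in DMSO, 767 to 1049 in cabozantinib and 869 to 1194 in foretinib. Epithelial markers were present: KRT19 was at 0 in all libraries, but KRT18 reached 4005 in DMSO, and the sum was 4079 to 6925 in DMSO, 4565 to 7027 in cabozantinib and 2981 to 6012 in foretinib. In a bulk culture, fewer cells of a type and less RNA per cell cannot be told apart.

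Together the 10 genes took up a similar share of the reads in all groups. Their summed level was 57151 ± 4313 (SD, n = 3) normalised counts in DMSO, 53558 ± 4231 in cabozantinib and 57859 ± 5350 in foretinib, or 0.209%, 0.195% and 0.204% of all reads. Relative to DMSO the mean was 1.01 times as high with foretinib and 0.937 times as high with cabozantinib, the foretinib to cabozantinib ratio was 1.08, and the ranges of the 3 groups overlapped. In percent of that sum SCG2 alone made up 38.7 ± 2.03% in DMSO, 35.3 ± 5.87% in cabozantinib and 31.3 ± 5.59% in foretinib, and CHGA another 22.8 ± 0.960%, 26.4 ± 3.48% and 23.4 ± 7.25%. The extremes of the SCG2 share were 24.9% in foretinib replicate 2 and 41.8% in cabozantinib replicate 5.

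**Figure D1:**
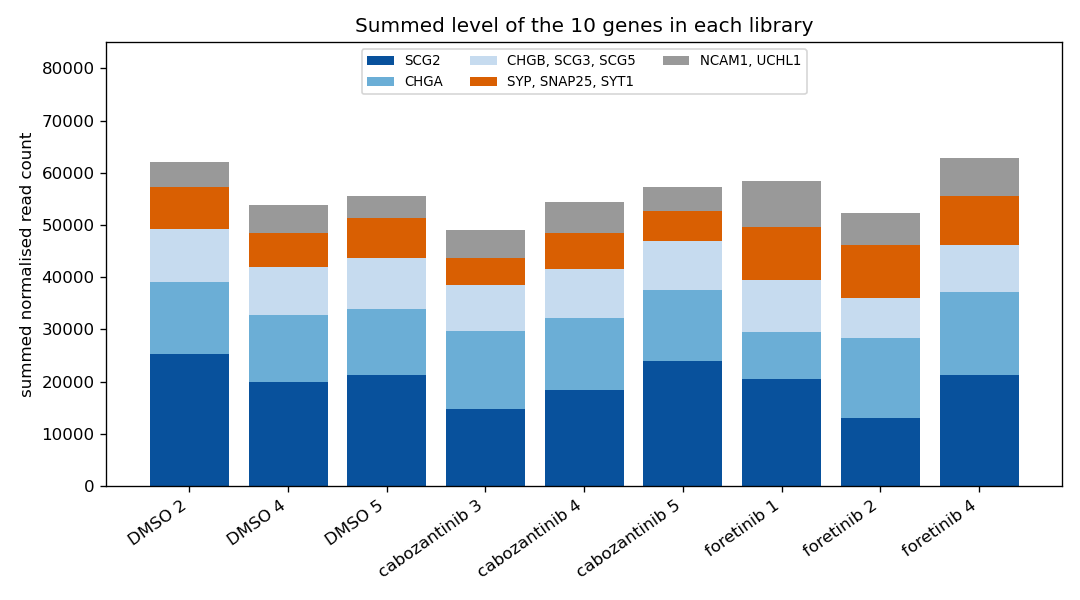
Summed normalised read counts of the 10 genes (vertical axis) in each of the 9 libraries, stacked by gene group. The sums lie between 48993 and 62933, SCG2 is the largest single gene except in cabozantinib replicate 3 and foretinib replicate 2, where CHGA is, and the groups overlap.

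To compare genes, levels were divided by exonic length, taken from GENCODE on GRCh38 and not from the gene models used for counting, so the order is approximate. In DMSO, SCG2 led with 8614 ± 1109.5 normalised counts per kilobase (SD, n = 3), followed by CHGA with 6299.8 ± 273. UCHL1 with 2255 ± 439 and CHGB with 1793 ± 86.1 came next, and their libraries did not overlap. SYP (1351 ± 106), SCG3 (1332 ± 114) and SNAP25 (1227 ± 343) followed at levels whose libraries overlapped. Below them were SCG5 with 645 ± 127, NCAM1 with 220.4 ± 38.4 and SYT1 with 26.0 ± 23.3. The DMSO libraries of each neighbouring pair outside the group of SYP, SCG3 and SNAP25 were separate. By group mean the same genes held the ends of the order in both inhibitor groups. SCG2 was at 7404 ± 1782 in cabozantinib and 7101 ± 1779 in foretinib, and SYT1 at 84.8 ± 35.6 and 155 ± 137. Single libraries departed from this order. Per kilobase CHGA was above SCG2 in cabozantinib replicate 3 and foretinib replicate 2. SYT1 was above SCG5 in cabozantinib replicate 5 and foretinib replicate 1.

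None of the 10 members passed an adjusted p below 0.05 by limma in any of the 3 comparisons, and none did by edgeR or DESeq2 on the recovered reads. Across all genes tested the share called was 0% by limma and 0% by edgeR in each comparison, so limma's count of 0 members is that of the whole table. DESeq2 called 5.14% of the genes tested in foretinib against DMSO, 0.372% in cabozantinib against DMSO and 4.89% in foretinib against cabozantinib. At an unadjusted limma p below 0.05, 0 members stood out in foretinib against DMSO (9.07% of all genes tested), 1 in cabozantinib against DMSO (SYP, lower; 1.31%) and 1 in foretinib against cabozantinib (SYP, higher; 9.90%). Both SYP counts became 0 under some of the alternatives, given with that gene. The 0 in foretinib against DMSO became 1 higher with DESeq2 (519 higher and 1166 lower of all genes) and without foretinib replicate 1 (409 and 1519). It became 1 higher and 1 lower without foretinib replicate 2 (386 and 1347), and 2 higher without foretinib replicate 4 (446 and 1287). The median log2 fold change of the members was 0.10, 0.07 and 0.01 in that order, beside -0.34, 0.04 and -0.44 for all genes tested. In the foretinib comparisons the median of all genes was close to 0 with the count models, -0.03 (edgeR) and 0.0014 (DESeq2) against DMSO, and -0.03 and 0 against cabozantinib. Among the 7805 genes with a mean of at least 500, which include 9 members and leave out SYT1, the members' medians were 0.08, 0.02 and 0.10 beside -0.10, 0.01 and -0.11. Comparisons that share a group of libraries are not independent of each other.

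Genes whose 3 libraries lay entirely above or below those of the other group were also counted. In cabozantinib against DMSO 2 members were higher without overlap (CHGB and SYT1; 5.18% of all genes tested) and 1 was lower (SYP; 4.71%). In foretinib against DMSO 0 members were higher (3.99% of all) and 0 lower (7.69%). In foretinib against cabozantinib the member counts were again 0 higher (4.49%) and 0 lower (9.70%).

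**Figure D2:**
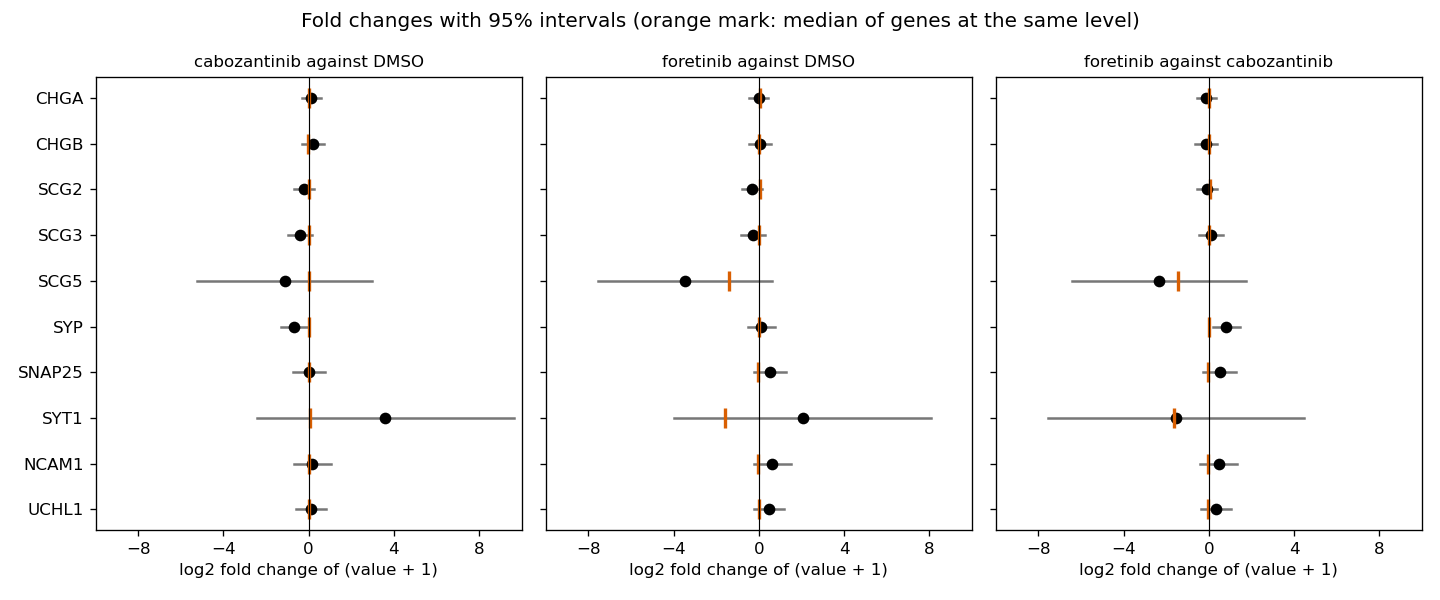
Log2 fold change of normalised count + 1 for each gene (points, horizontal axis) with its 95% interval (grey lines) in the 3 comparisons; orange marks are the median of all tested genes within 1.5-fold of that gene's mean level. Of the 30 intervals, those of SYP in cabozantinib against DMSO and in foretinib against cabozantinib leave out 0, and those of SCG5 and SYT1 are by far the widest.

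The chromogranins were the steadiest members outside the foretinib group. CHGA, a precursor of several peptides and a driver of granule formation, measured 13626, 12826 and 12538 normalised counts in the DMSO libraries (in the order of their numbers), 14869.5, 13706 and 13599.6 with cabozantinib, and 8976, 15432 and 15869 with foretinib. The cabozantinib values lay just above most DMSO values with an overlap, whereas foretinib replicate 1 was the lowest of all 9 libraries and the other two foretinib libraries were the highest. The log2 fold change was 0.11 ± 0.21 (SE) for cabozantinib and 0.00 ± 0.21 for foretinib against DMSO, with limma adjusted p-values of 0.9998 and 0.9995. The 95% interval of foretinib against cabozantinib ran from -0.56 to 0.33 around -0.11.

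CHGB, the second chromogranin, measured 4823, 4416 and 4477 in DMSO, 5519.7, 5295 and 5202 with cabozantinib, and 5493, 3564 and 5698 with foretinib. Every cabozantinib library was above every DMSO library, the mean being 1.17 times higher (5339 ± 163 against 4572 ± 219.5, SD, n = 3). The foretinib libraries held both the highest and the lowest value of the gene and overlapped both other groups. The log2 fold change in cabozantinib was 0.22 with a 95% interval of -0.29 to 0.74 (limma adjusted p = 0.9998). The fold changes in foretinib were 0.08 against DMSO and -0.15 against cabozantinib, and the intervals, -0.44 to 0.59 and -0.66 to 0.37, included 0.

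SCG2 (secretogranin II), the precursor of the peptide secretoneurin, was the most abundant member: 25386, 19878 and 21307 normalised counts in DMSO, 14846, 18415 and 23956 with cabozantinib, and 20540.4, 13019 and 21316 with foretinib. The top value came from a DMSO library and the bottom value from foretinib replicate 2, and all groups overlapped. Group means were 1.16-fold lower with cabozantinib and 1.21-fold lower with foretinib than with DMSO. Neither difference passed the test, the intervals of the log2 fold change being -0.71 to 0.23 and -0.77 to 0.16 (limma adjusted p = 0.9998 and 0.6058). Between the inhibitors the log2 difference was -0.07, with an interval of -0.53 to 0.40.

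SCG3 (secretogranin III), which anchors chromogranin A to cholesterol-rich granule membrane, measured 4707, 3988 and 4554 in DMSO, 2719, 3411 and 4125 with cabozantinib and 4140.0, 3356 and 3366 with foretinib. In either inhibitor group 2 libraries lay below the lowest DMSO library and 1 lay within the DMSO range. The log2 fold change was -0.39 (95% interval -0.95 to 0.17) in cabozantinib and -0.29 (-0.85 to 0.27) in foretinib, with limma adjusted p-values of 0.9998 and 0.6807. SCG3 is the member whose promoter window holds the separate matches to both RE1 parts shown above. Foretinib and cabozantinib differed by 0.10 on the log2 scale, with an interval of -0.46 to 0.66.

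SCG5 had a low level, with uneven values in the inhibitor groups. Its values were 636, 949 and 812 in DMSO, 522, 667 and 136 with cabozantinib, and 278, 647 and 1.05 with foretinib, the last resting on 1 read. Most inhibitor libraries were below or at the bottom of the DMSO range, but 1 cabozantinib and 1 foretinib library exceeded DMSO replicate 2. Group means in the order DMSO, cabozantinib and foretinib were 799 ± 157, 441 ± 274 and 309 ± 324 (SD, n = 3). In that order the coefficients of variation were 19.7%, 62.1% and 105%, beside medians of 50.6%, 42.5% and 92.9% for genes of similar level. The log2 fold change in foretinib was -3.46 with an interval of -7.56 to 0.64 (limma adjusted p = 0.5319), and it was -0.89 without foretinib replicate 4. Among 2503 genes within 1.5-fold of its mean level, 45.0% had a foretinib library at 3 reads or fewer, against 5.47% with a DMSO and 2.80% with a cabozantinib library in that state. The part of this in the SCG5 value was not tested.

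**Figure D3:**
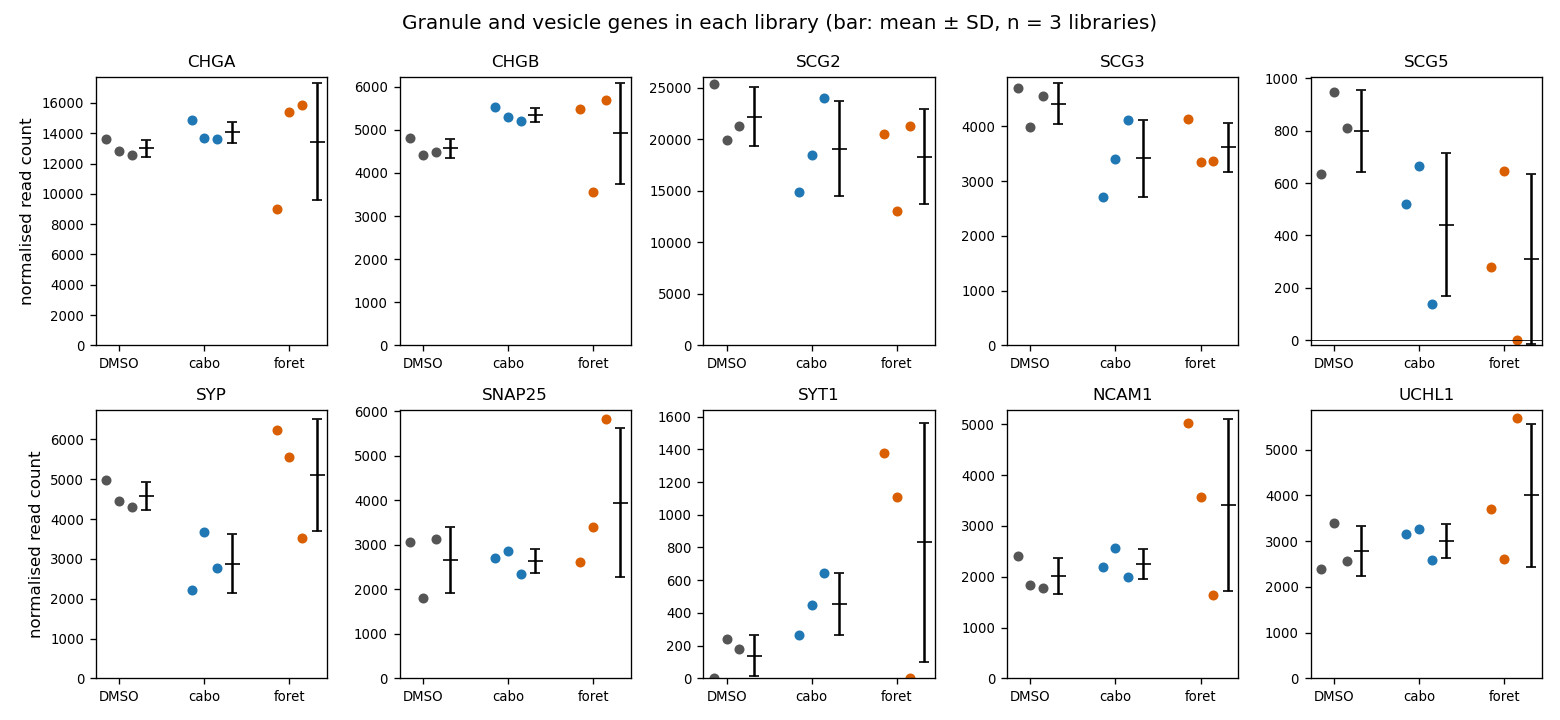
Normalised read count (vertical axis, a scale of its own for each gene) of the 10 genes in the 9 libraries, drawn left to right by replicate number within DMSO, cabozantinib (cabo) and foretinib (foret); the dash and bar are the mean and SD of 3 libraries, and the bar of SCG5 in foretinib runs below 0. SYP in cabozantinib lies below every DMSO library, and SCG5 and SYT1 each have a foretinib library near 0.

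SYP gave the clearest contrast of the set. Synaptophysin, a protein with several membrane spans and the classical vesicle marker, measured 4979, 4458 and 4294 normalised counts in DMSO, 2209, 3669 and 2769 with cabozantinib, and 6233, 5562 and 3526 with foretinib. All cabozantinib libraries were below all DMSO libraries, a mean 1.59-fold lower (2882 ± 737 against 4577 ± 358, SD, n = 3). The highest values of the gene were those of foretinib replicates 1 and 2, while foretinib replicate 4 lay inside the cabozantinib range. The log2 fold change in cabozantinib against DMSO was -0.70 ± 0.29 (SE) with a 95% interval of -1.32 to -0.07, an unadjusted limma p of 0.0319 and an adjusted p of 0.9998. Genes within 1.5-fold of its level had a median fold change of 0.00 on that scale. The difference does not pass the adjusted threshold, and its adjusted p ranged from 0.9384 to 1.0 over the alternatives run. With the replicate block the log2 change was -0.38, and the unadjusted p was above 0.05 with the block and in 5 of the 6 fits that left out 1 library, all but that without cabozantinib replicate 4.

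For the pair of inhibitors at the same dose and time, SYP was 1.77-fold higher with foretinib, a log2 difference of 0.81 (95% interval 0.19 to 1.44). The unadjusted limma p was 0.0145 and the adjusted p over all genes 0.3985, with a range of 0.06488 (DESeq2) to 0.8555 (replicate block) over the alternatives. Leaving out 1 library at a time gave log2 differences between 0.64 and 1.06, and the replicate block, which leaves foretinib replicate 1 and cabozantinib replicate 3 without a partner, gave 0.23. The unadjusted p was above 0.05 with the block, without cabozantinib replicate 3 and without foretinib replicate 1. Foretinib against DMSO gave 0.12 (-0.51 to 0.75). Of the 10 comparisons between the compounds, that of SYP was the one whose interval left out 0. Adjusted over all genes tested, no member distinguished the compounds. For the other members the interval of the difference was too wide to show that the compounds act alike: the narrowest, that of CHGA, spanned -0.56 to 0.33.

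SNAP25, which forms the fusion complex with syntaxin and a vesicle SNARE, measured 3060.2, 1805 and 3128 in DMSO, 2705, 2872 and 2339 with cabozantinib, and 2606, 3400.5 and 5824 with foretinib. Foretinib replicate 4 was well above the other libraries and DMSO replicate 4 well below, with overlap of all groups. The mean in foretinib was 1.48 times that in DMSO, a log2 change of 0.53 (-0.24 to 1.29, limma adjusted p = 0.587), and 0.20 without foretinib replicate 4. In cabozantinib the log2 change was 0.02 (-0.74 to 0.79).

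SYT1 was uneven, with 2 of the 9 libraries at 0 or 1 read. Its values were 0, 240.1 and 177 in DMSO, 264, 450.4 and 646 with cabozantinib, and 1379, 1111 and 1.05 with foretinib. The DMSO library at 0 had 32986439 reads, and a count of 0 allows up to 3 reads there, for counting error only. Cabozantinib libraries all lay above DMSO libraries, whereas foretinib held the 2 highest values and, in replicate 4, a single read. The means were 139 ± 124, 453 ± 191 and 830.3 ± 731 (SD, n = 3), and the log2 fold changes against DMSO were 3.61 in cabozantinib (-2.42 to 9.63) and 2.06 in foretinib (-3.96 to 8.09), with limma adjusted p-values of 0.9998 and 0.785. These values turned on single libraries: in foretinib against DMSO the fold change was 5.14 without foretinib replicate 4 and -0.50 without DMSO replicate 2. At this gene's level 50% of 2434 genes had a foretinib library at 3 reads or fewer, against 7.23% for DMSO and 3.57% for cabozantinib, and its part in the SYT1 values was not tested.

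The remaining members are neuronal proteins outside the release machinery. NCAM1, the CD56 antigen, measured 2414, 1830.2 and 1786 in DMSO, 2187, 2573 and 1988 with cabozantinib, and 5026, 3563 and 1644 with foretinib. Replicates 1 and 2 of foretinib exceeded all other libraries while replicate 4 was the lowest of the 9. The mean was 1.70-fold higher in foretinib than in DMSO, a log2 change of 0.63 (-0.23 to 1.5, limma adjusted p = 0.5667), which became 1.09 without foretinib replicate 4 and 0.28 without foretinib replicate 1. In cabozantinib it was 0.17 (-0.70 to 1.03).

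UCHL1, a deubiquitinase also known as PGP9.5, measured 2386, 3404 and 2571 in DMSO, 3153, 3274 and 2588 with cabozantinib, and 3704, 2614 and 5689 with foretinib. Foretinib replicates 1 and 4 were above every other library and replicate 2 was within the DMSO range. Its log2 fold change was 0.47 (-0.23 to 1.17) in foretinib and 0.12 (-0.58 to 0.82) in cabozantinib, with limma adjusted p-values of 0.6018 and 0.9998. The members did not order the foretinib libraries alike: replicate 4 was the highest of them for CHGA, CHGB, SCG2, SNAP25 and UCHL1 and the lowest for SCG5, SYP, SYT1 and NCAM1, with SCG3 in between.

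The members also differed in how evenly the libraries of a group measured them. CHGB varied by 4.80% (coefficient of variation, n = 3) in DMSO and 3.06% in cabozantinib, against medians of 18.5% and 15.6% for 1228 genes of similar level. Only 5.21% and 2.61% of those genes varied less. In foretinib the coefficient for CHGB was 23.9%, with a median of 31.0% for its level. CHGA followed with 4.34% in DMSO, 5.01% in cabozantinib and 28.8% in foretinib, beside level medians of 13.1%, 10.6% and 19.0%. SCG2 showed the reverse in cabozantinib, where its 24.1% exceeded that of 97.8% of 179 genes of similar level. SCG3 in foretinib, at 12.4%, was steadier than most genes of its level, whose median was 34.6%.

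**Figure D4:**
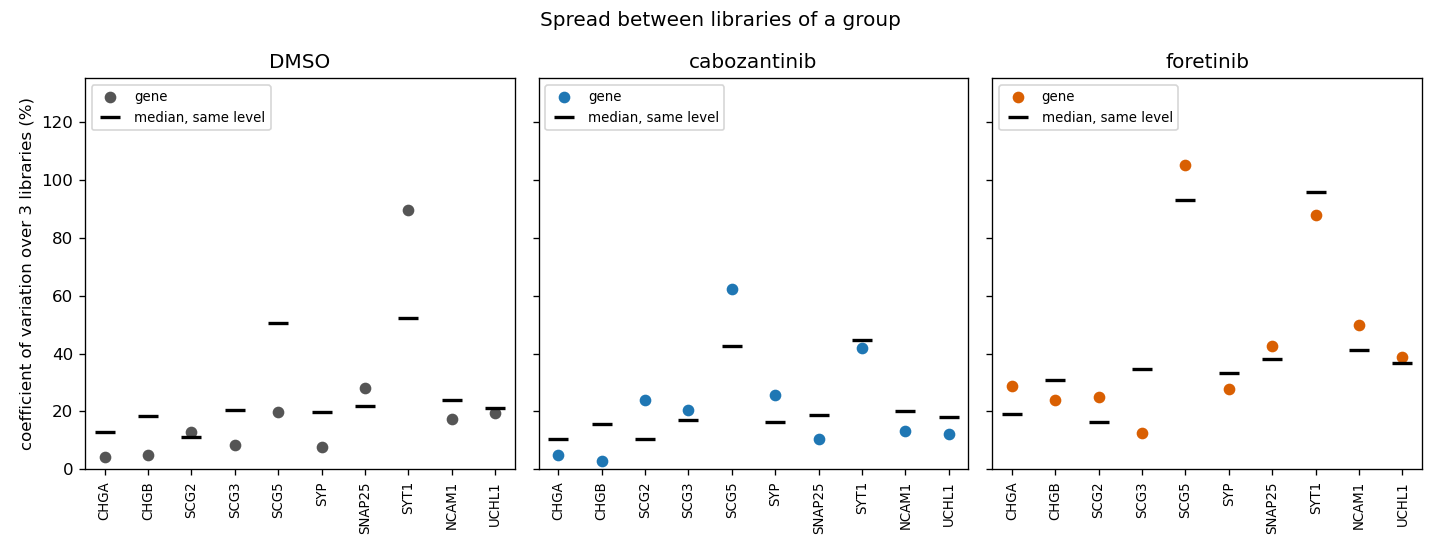
Coefficient of variation over 3 libraries (vertical axis, percent) of each gene (points) in the 3 groups, beside the median of tested genes within 1.5-fold of its mean level (black dashes). CHGA and CHGB sit well under their dashes in DMSO and cabozantinib, and SCG2 sits above its dash in cabozantinib.

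The genes whose profile over the 9 libraries was most like a member's were found for the 3 granins SCG2, CHGA and CHGB, as the smallest root mean square difference of centred log2 values. For SCG2 these were PRRC2B (0.177) and SCRN1 (0.216) of 378 candidates. CHGA was followed most closely by HNRPDL (0.110) and WASF3 (0.124) of 655, and CHGB by WNK1 (0.0920) and STMN1 (0.114) of 2510. For genes that vary little, a small distance mostly reflects small variation, so the list describes and does not link these genes.

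Around the members, 9 lists of related genes (granule biogenesis, prohormone processing, peptide cargo, vesicle membrane, SNARE and exocytosis machinery, widely expressed SNAREs, neural adhesion, ubiquitin hydrolases and ubiquitin, and lineage regulators) held 103 tested genes. None was called by limma in any comparison. At an unadjusted p below 0.05, 4 were higher and 3 lower in foretinib against DMSO (6.80% of 103), 3 higher and 0 lower in cabozantinib against DMSO (2.91%), and 3 higher and 7 lower in foretinib against cabozantinib (9.71%), beside 9.07%, 1.31% and 9.90% of all genes tested. The median log2 fold change of the 103 was -0.18, 0.10 and -0.15. In foretinib against DMSO the genes past the unadjusted threshold were 1 higher and 1 lower of 8 prohormone processing genes, 2 higher of 26 exocytosis genes, 1 lower of 16 widely expressed SNAREs, 1 lower of 7 adhesion genes and 1 higher of 11 lineage regulators, with 0 of 5 granule biogenesis genes, 0 of 5 peptide genes, 0 of 17 vesicle membrane genes and 0 of 8 ubiquitin genes. In cabozantinib against DMSO the vesicle membrane, exocytosis and lineage lists each had 1 higher and the other 6 lists had 0. Between the inhibitors, foretinib was lower for 2 prohormone processing genes, 2 adhesion genes and 1 widely expressed SNARE, higher for 2 and lower for 1 of the exocytosis genes, and higher for 1 and lower for 1 of the ubiquitin genes.

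Partners of the members in these lists gave the following values. VGF, a granin-like neuropeptide precursor, measured 6993 ± 607 in DMSO, 5081 ± 1238 in cabozantinib and 6162 ± 1925 in foretinib (SD, n = 3), its cabozantinib libraries all below those of DMSO (log2 -0.49, limma adjusted p = 0.9998). UNC13A, which primes vesicles, was lower without overlap in both inhibitor groups, with 5407 ± 217 for cabozantinib and 5371 ± 1379 for foretinib beside 7037 ± 597 for DMSO (log2 -0.38 and -0.42, limma adjusted p = 0.9998 and 0.5319).

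The 3 list genes past the unadjusted threshold in cabozantinib against DMSO were CPLX2, SV2B and NEUROD1, of which CPLX2 and SV2B were named after their values were seen. CPLX2, a complexin that clamps the SNARE complex, measured 3185, 2900.1 and 4461 in DMSO, 5089, 5882 and 7795 with cabozantinib, and 5305, 4126 and 3902 with foretinib. Cabozantinib libraries were all above DMSO, 1.78-fold in the mean with a log2 change of 0.83, an unadjusted limma p of 0.00781 and an adjusted p of 0.9998. SV2B, a vesicle glycoprotein, stood at 4.16, 0 and 0 in DMSO, 148, 223 and 119.7 with cabozantinib, and 0, 997 and 0 with foretinib. For cabozantinib against DMSO it had an unadjusted limma p of 0.0337 and an adjusted p of 0.9998. Outside cabozantinib only foretinib replicate 2 reached 10 normalised counts, so SV2B passed the filter through the group where it was higher than DMSO. Its p-values and its place in the counts of list genes above are therefore no support for a difference.

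CADM1, an adhesion molecule of the same immunoglobulin superfamily as NCAM1, was also picked after its values were seen. It measured 308, 354 and 519 in DMSO and 173, 95.7 and 152 with cabozantinib, and had no read in any foretinib library. Against a floor of 3 reads per library, foretinib was at least 139-fold lower than DMSO and at least 49.6-fold lower than cabozantinib. That floor allows for counting error only and not for the spread between libraries, so neither value bounds the difference between the groups. The unadjusted limma p-values were 0.00163 and 0.00613 and the adjusted ones 0.358 and 0.3766, while DESeq2 gave adjusted p-values of 3.561e-06 and 0.0001432; over all alternatives the adjusted p ran from there to 0.7175 and 0.7217. At its level 90.2% of 1611 genes had at least 1 foretinib library at 3 reads or fewer, against 48.6% for DMSO and 34.6% for cabozantinib. All 3 libraries were in that state for 9.19% with foretinib, 1.92% with DMSO and 0.745% with cabozantinib. The part of this in the CADM1 value was not tested.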

How the data were processed

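Per the labels' protocols, total RNA was column-purified with DNase digestion and sequenced from Encore Complete libraries. The submitters' processing notes list TopHat2 2.0.13, Cufflinks 2.2.1, HTSeq, DESeq2 and the build hs37d5. The deposited signal values are gene read counts that the authors divided by 1 size factor per library: in every library 100.0% of values were whole multiples of 1 read (tolerance 1e-06). These were tested as log2(value + 1) with limma 3.58.1 in R 4.3.3 (limma-trend, two-sided, all 9 libraries in 1 model, Benjamini-Hochberg over 12642 genes with at least 10 in at least 3 libraries). Alternatives were other pseudocounts, filters and scalings, count models run on recovered reads (edgeR 4.0.16, DESeq2 1.42.0), a replicate block, the 6 libraries compared alone, and leaving out each library. Scripts were tested on simulated data. The members and lists were chosen with earlier results of these data known. Beside the members, text names came from a rule (the 2 most abundant tested genes of each list, and the 2 genes nearest in profile to each of the 3 most abundant members). CPLX2, SV2B, CADM1, PCSK2, INSM1, REST and the marker and peptide genes named as being at 0 fall outside it. Some list genes are not reported here.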

Additional observations from a re-analysis of the deposited data

How the results depend on the processing

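No member had an adjusted p below 0.05 under any alternative; 441 of 477 recomputed member fold changes kept their sign, and the 36 that changed it were of SCG5, SYT1 and NCAM1 or of changes near 0. Over all genes, quantile normalisation called 1 gene in foretinib against DMSO, and DESeq2 called 650, 47 and 618 genes (foretinib against DMSO, cabozantinib against DMSO, foretinib against cabozantinib), where limma and edgeR called 0; the cause was not tested. The members' median log2 change in foretinib against cabozantinib was 0.15 with quantile normalisation, 0.21 with edgeR, 0.24 with DESeq2 and -0.024 with TMM scaling; that in foretinib against DMSO was -0.0033 with quantile normalisation. For the former, leaving out 1 library gave -0.064 to 0.18, and -0.065 to 0.12 in cabozantinib against DMSO (lowest without DMSO replicate 4). The median of all genes in foretinib against DMSO and against cabozantinib, -0.34 and -0.44 by limma, was -0.20 and -0.23 with quantile normalisation, -0.03 and -0.03 with edgeR, and 0.0014 and 0 with DESeq2. The ratios of summed levels, whose alternatives were chosen after seeing the data, stayed between 0.904 and 1.13. SCG5, SYT1, SV2B and CADM1 have libraries at 3 reads or fewer, some of them among the deepest, and what sets these was not tested.

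Correlation did not show the replicate numbers to pair the libraries. In their deviations from the group means, same-numbered libraries of different groups correlated at -0.0022 to 0.0288, and differently numbered ones at -0.0244 to 0.0308. These correlations weigh all genes tested alike, the uneven low ones included, so they do not settle whether the numbers mark a shared origin. With the number as a replicate block, which leaves foretinib replicate 1 and cabozantinib replicate 3 without a partner, 0 genes were called in each comparison and the members' median was -0.075 in cabozantinib against DMSO and -0.14 in foretinib against cabozantinib. The block gave log2 changes of -0.38 for SYP in cabozantinib against DMSO and 0.23 in foretinib against cabozantinib, -0.15 for SYP, -0.014 for CHGB and -0.25 for PCSK1 in foretinib against DMSO, -0.043 for SNAP25 and -0.11 for UCHL1 in cabozantinib against DMSO, and 0.16 for CHGA, -0.13 for SCG3, -0.295 for NCAM1 and -0.23 for PCSK1 in foretinib against cabozantinib.

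Signs also changed, with no adjusted p below 0.05, as follows. In foretinib against DMSO quantile normalisation gave -0.067 for CHGA, -0.033 for CHGB and -0.033 for PCSK1, and TMM scaling -0.029 for CHGA and -0.013 for PCSK1. In cabozantinib against DMSO SNAP25 was -0.0051 with edgeR and -0.011 with DESeq2. In foretinib against cabozantinib quantile normalisation gave -0.023 for SCG3, 0.058 for SCG5 and 0.34 for SYT1; SYT1 was 0.092 with a pseudocount of 100, 0.84 with edgeR and 0.87 with DESeq2, and SV2B 1.00 and 1.03 with those tools.

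Leaving out 1 library changed the sign within these ranges. In foretinib against DMSO they were -0.045 to 0.37 for SYP, -0.14 to 0.27 for CHGA, -0.046 to 0.29 for CHGB, -0.50 to 5.14 for SYT1, -0.43 to 0.047 for VGF, -0.26 to 0.26 for PCSK1 and -0.79 to 4.19 for SV2B. In cabozantinib against DMSO they were -0.23 to 0.16 for SNAP25 and -0.091 to 0.028 for PCSK1. In foretinib against cabozantinib they were -0.26 to 0.16 for CHGA, -0.27 to 0.068 for CHGB, -0.23 to 0.16 for SCG2, -0.058 to 0.24 for SCG3, -3.93 to 0.23 for SCG5, -3.16 to 1.54 for SYT1, -0.49 to 0.23 for QPCT, -0.21 to 0.30 for PCSK1 and -0.20 to 0.18 for UNC13A.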

Other observations

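The enzymes that mature granule peptides were unevenly represented. PCSK1, the convertase PC1/3, was among the most abundant transcripts of the pathway at 27499.6 ± 319 normalised counts in DMSO, 26743 ± 2296 in cabozantinib and 29084 ± 10682 in foretinib (SD, n = 3), the foretinib libraries ranging from 19854 to 40785. PCSK2, the convertase that the SCG5 product chaperones, was above 0 only in DMSO replicate 5, at 43.1 (44 reads), and below the filter. QPCT, which forms the pyroglutamate end of peptides, measured 4465 ± 987.5, 3231 ± 268 and 3123 ± 1447, its cabozantinib libraries all below those of DMSO (log2 -0.45, limma adjusted p = 0.9998).

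Of 22 peptide cargo genes, 13 were at 0 in all 9 libraries, including GRP, CALCA and POMC, which encode peptides made by some lung neuroendocrine tumours. ADCYAP1, which encodes PACAP, had the highest mean of the peptide genes over the 9 libraries, at 2735 to 3029 in DMSO, 2677 to 4106 in cabozantinib and 1987 to 4529 in foretinib. NMU (neuromedin U) ranged from 291 to 911, 690.5 to 974 and 681 to 3000.0. NEUROD1, a lineage transcription factor, measured 13654 ± 354 in DMSO, 18190.4 ± 548 in cabozantinib and 17384 ± 1269.8 in foretinib. Both inhibitor groups lay above DMSO without overlap, with log2 changes of 0.41 in cabozantinib and 0.35 in foretinib, unadjusted limma p-values of 0.01105 and 0.02795 and adjusted ones of 0.9998 and 0.5229.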
